A study of Mus musculus with 4 samples.

Results

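RAB genes encode small GTPases that mark the membranes of the cell and steer vesicles between them. The genes described here are those whose symbol in the count table was Rab followed by a number and at most a single letter. Rab27a, Rab32 and Rab38, the RAB genes of melanosome transport and biogenesis, were set aside by that rule. It found 56 genes of 24421 listed symbols. The rule used no measured value, but the gene set was chosen with earlier results of these data known. The cells were B16F10, a melanoma line of C57BL/6 mice, grown in serum-containing medium, infected with a lentivirus and kept as stable lines under puromycin selection. In the shControl lines the vector carried a control that the study lists as empty, and in the shLmna lines a short hairpin RNA against exon 8 of Lmna, the gene of the nuclear lamina proteins lamin A and lamin C. Effects that any hairpin may have are thus included in the comparison, and the lines were selected pools. RNA was counted by bulk MARS-seq, which reads the 3′ end of transcripts, in 2 libraries of each group.

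A RAB protein cycles between a GDP-bound form held in the cytosol and a GTP-bound form on a membrane. Guanine nucleotide exchange factors (GEFs) load GTP and so switch the protein on, GTPase-activating proteins (GAPs) switch it off, and effectors such as tethers, motors and coat components bind the active form. Rab escort proteins and a geranylgeranyl transferase attach the lipid that anchors the RAB, and GDP dissociation inhibitors (GDIs) extract it from the membrane again. Each compartment has its own members, for example RAB1 between the endoplasmic reticulum (ER) and the Golgi, RAB5 on early endosomes, RAB7 on late endosomes and RAB3 on secretory granules. In pigment cells the same machinery serves both general traffic and the supply of cargo to melanosomes.

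The phosphate-binding loop, in which a glycine, 4 further residues, a glycine, a lysine and a serine or threonine follow each other, is the nucleotide-binding signature of these proteins. Its codons were found in the reference transcripts of 53 of the 56 genes (GENCODE M21 annotation, GRCm38), all 53 different at the base level. The pattern was not matched in the transcripts used for Rab13, Rab40b and Rab40c. The 24 coding bases are shown for the 5 genes that differed between the groups, with the codons of the first glycine and of the closing glycine, lysine and serine or threonine in capitals. They lie at coding bases 52 to 75 in Rab1 and Rab14, 46 to 69 in Rab10, 85 to 108 in Rab3a and 67 to 90 in Rab43.
Rab1: GGCgattctggggttGGAAAGTCC
Rab3a: GGGaacagcagcgtgGGCAAAACC
Rab10: GGGgactcgggagtgGGCAAGACC
Rab14: GGGgatatgggagtaGGAAAATCT
Rab43: GGCgacgcgagcgtgGGCAAGACG

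To check the labels, Lmna itself was read before the RAB genes. It had 2826 and 2684 counts in the shControl libraries and 331 and 480 in the shLmna libraries, and its log2 fold change was -2.61 (SE 0.142, edgeR adjusted p = 7.93e-06). The libraries held 2494880 to 3808843 counts and 11562 to 12395 detected genes. The labelled cell type was checked by its markers. Of 7 melanocyte lineage markers, 6 were above 3 counts in all 4 libraries, and their summed level was 20117 to 20891 CPM (counts relative to the scaled library total) in shControl and 21156 to 24602 CPM in shLmna. Single markers went different ways, with Sox10 lower (-0.89, edgeR adjusted p = 0.00161), Pmel and Mlana higher (0.41 and 0.51, edgeR adjusted p = 0.0258 and 0.00510), and Tyr at 1 to 7 counts. Endothelial, epithelial, fibroblast and immune markers summed to at most 16.4 CPM each, with Cdh5, Epcam, Dcn, Ptprc and Cd3e at 0. The labels do not say that libraries of a group came from separate cultures, so p-values measure the spread between libraries. In bulk RNA, fewer cells that express a gene and less RNA per cell cannot be told apart.

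B16F10 cells expressed a broad set of RAB genes over a wide range of levels. Between 41 and 45 of the 56 genes had at least 1 count in each library, and 37 passed the filter on low counts and entered the test. Their mean level ran from 3.45 to 686 CPM with a median of 35.4 CPM, beside a median of 32.6 CPM over all 9150 tested genes. Counting was confined to the last 1000 bases of a transcript and 100 bases downstream, so CPM was not scaled by transcript length. An order of levels between genes therefore also reflects how well each 3′ end was captured.

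Of the 19 genes that did not enter the test, 9 had no count in any library. These were Rab3b, Rab3c, Rab9b, Rab19, Rab26, Rab27b, Rab39, Rab40b and Rab42. A count of 0 allows up to 3 counts, which corresponds to 0.803 to 1.19 CPM in these libraries and covers counting error only. Rab7b, Rab18, Rab20, Rab33a, Rab37, Rab39b and Rab44 had at most 3 counts in every library. The other 3 had more than 3 counts in at least 1 library. Rab11b had 7 and 0 counts in the shControl libraries and 6 and 2 in the shLmna libraries, and Rab25 had 7 and 3 against 0 and 4. Rab6a, a RAB of the Golgi, had 2 and 143 counts in the shControl libraries and 1 and 3 in the shLmna libraries. Rab3b, Rab3c and Rab26, known from neurons and secretory cells, and Rab25, known from epithelia, were thus at or near the limit of detection at this depth. So were Rab18, listed with the ER and the Golgi, and Rab11b, listed with early and recycling endosomes. Whether such low counts reflect the cell type or the capture of the 3′ end was not tested.

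Rab7, Rab5c, Rab34, Rab1b and Rab2a had the highest mean levels, and none of them passed the test. Rab7, the RAB of late endosomes and lysosomes, was at 608 and 679 CPM in shControl and 730 and 726 CPM in shLmna. Both shLmna libraries lay above both shControl libraries, but the log2 fold change was 0.18 (SE 0.117, edgeR adjusted p = 0.346). Rab5c, an early endosome RAB, was at 370 and 353 CPM in shControl and 422 and 365 CPM in shLmna, and the groups overlapped (log2 fold change 0.12, SE 0.127, edgeR adjusted p = 0.558). Rab34, which has been linked to lysosome positioning and to ciliogenesis, was at 230 and 234 CPM in shControl and 198 and 181 CPM in shLmna. Its shLmna libraries were both below, at -0.30 on the log2 scale (SE 0.120, edgeR adjusted p = 0.129). Rab2a, which acts between the ER and the Golgi and in late endocytic fusion, was at 148 and 161 CPM in shControl and 125 and 127 CPM in shLmna, again without overlap (-0.29 on the log2 scale, SE 0.122, edgeR adjusted p = 0.137).

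The summed level of the 56 genes was 2649 and 2897 CPM in shControl and 2819 and 2743 CPM in shLmna. Both shLmna sums lay between the shControl sums, and the means were 2773 ± 176 CPM (SD, n = 2) and 2781 ± 53.9 CPM (SD, n = 2). Together Rab7, Rab5c, Rab34, Rab1b and Rab2a took 55.6% to 57.9% of all RAB counts in each library. Rab7 alone took 22.9% and 23.4% in shControl and 25.9% and 26.5% in shLmna.

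**Figure D1:**
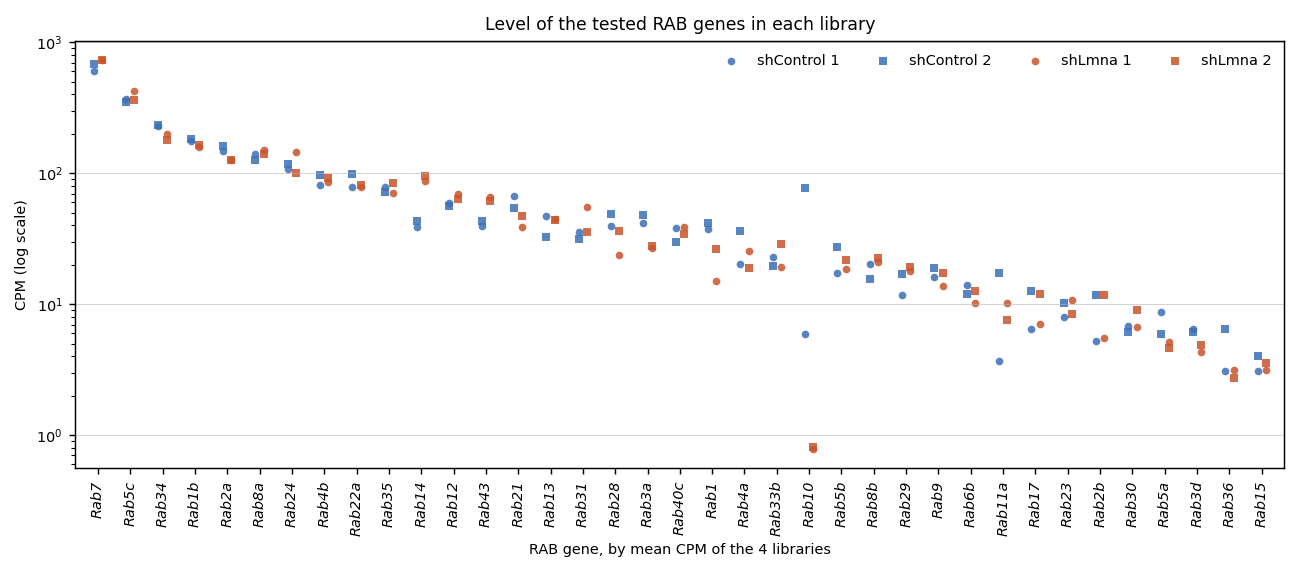
Level of each of the 37 tested RAB genes in CPM on a log scale, ordered by the mean of the 4 libraries, with a point per library (blue shControl, orange shLmna; circles library 1, squares library 2). Levels span from about 3.45 to 686 CPM on average, Rab14 and Rab43 are higher in both shLmna libraries, and Rab10 lies at 5.89 and 77.6 CPM in the shControl libraries.

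To ask which RAB genes changed with lamin A/C knockdown, shLmna was compared with shControl in a fit over all 9150 tested genes. Rab1, Rab3a and Rab10 were lower in shLmna and Rab14 and Rab43 were higher at an edgeR quasi-likelihood adjusted p under 0.05. These were 3 of 37 genes lower, where 9.74% of all tested genes were lower, and 2 of 37 higher, where 5.48% were. In either direction 13.5% of the tested RAB genes passed, against 15.2% of all tested genes. The study's 3 limits additionally ask for a log2 fold change beyond 1 in size and a mean normalized count above 5. Under them Rab10 was called lower (background 5.88%) and Rab14 higher (background 1.76%), or 5.41% of the tested RAB genes against 7.64% of all genes. The share of RAB genes that changed was therefore close to that of the transcriptome as a whole. DESeq2 passed Rab10 lower and Rab14 higher, and no other RAB gene. Without shLmna 1, 0 genes were lower and 1 higher, without shLmna 2, 1 was lower and 1 higher, and without shControl 1, 7 were lower and 2 higher. The shares of all tested genes moved the same way, to 4.51% lower and 1.23% higher without shLmna 1, 4.35% and 0.935% without shLmna 2, and 13.8% and 8.04% without shControl 1.

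The remaining 32 genes did not pass. The median log2 fold change over the 37 genes was -0.0054, with quartiles of -0.30 and 0.15, and 18 were positive and 19 negative. Over all tested genes the median was -0.0011 and the quartiles -0.30 and 0.27. A log2 fold change under 0.5 in size was found for 29 of the 37 genes (78.4%) and for 71.9% of all tested genes. In 7 genes both shLmna libraries lay above both shControl libraries (background 29.5%), in 10 both lay below (background 30.6%), and in 20 the groups overlapped.

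**Figure D2:**
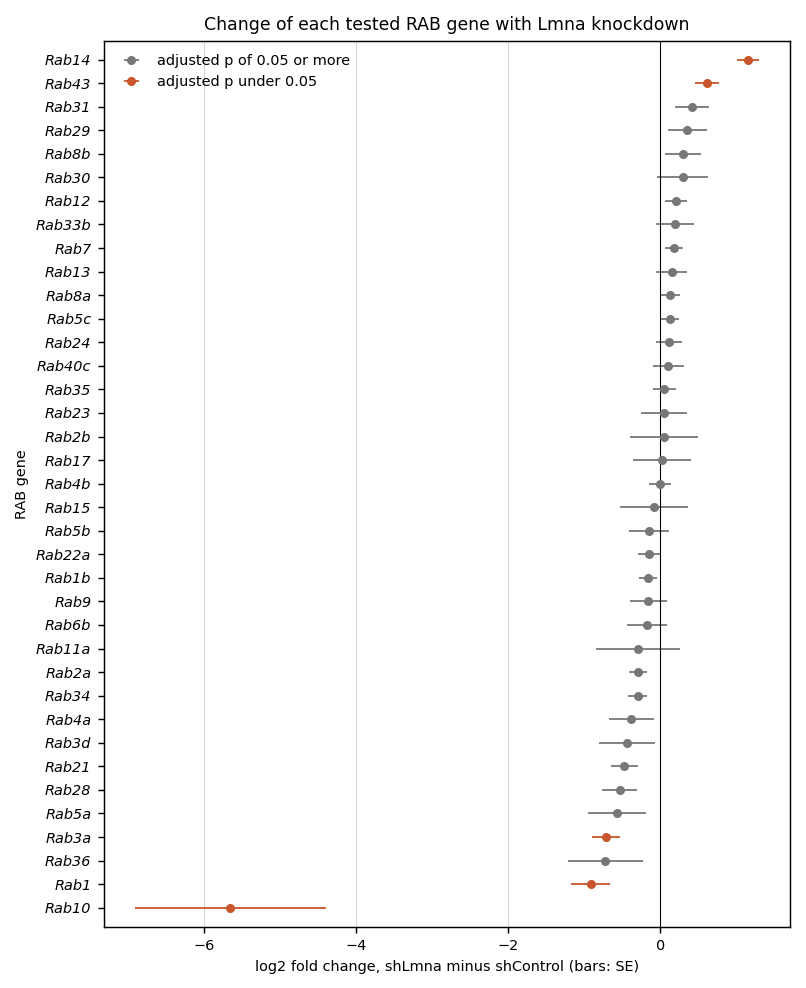
log2 fold change of each tested RAB gene, shLmna minus shControl, with its SE as a bar, ordered by size; orange points passed an edgeR adjusted p of 0.05. Apart from Rab10 at -5.65 the changes lie between -0.91 and 1.16, with Rab14 at the upper end.

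Among the RAB genes of the ER and the Golgi, 8 of 12 listed genes were tested, and Rab1 was lower and Rab43 higher in shLmna. Beside a background of 9.74% lower and 5.48% higher, these counts are too small to say anything of the list. Rab1, listed as Rab1a in current nomenclature, drives ER to Golgi transport and the early steps of autophagy. It lies at chr11:20201432-20226856 on the plus strand (GRCm38). Rab1 had 122 and 157 counts in the shControl libraries and 38 and 97 in the shLmna libraries, or 37.8 and 42.03 against 15.03 and 26.4 CPM. The groups did not overlap, although the shLmna libraries differed from each other more than the shControl libraries did. The means were 39.9 ± 3.002 CPM (SD, n = 2) and 20.7 ± 8.06 CPM (SD, n = 2), and the log2 fold change was -0.91 (SE 0.256, edgeR adjusted p = 0.0390). DESeq2 gave -0.93 with an adjusted p of 0.132. Without shLmna 1 the value was -0.59 (edgeR adjusted p = 0.231), and without shLmna 2 it was -1.39.

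Rab1b encodes the closest relative of the Rab1 protein, with 90.7% identical residues, and does the same transport step. Rab1b was at 176 and 183 CPM in shControl and 158 and 164 CPM in shLmna, and its log2 fold change was -0.16 (SE 0.117, edgeR adjusted p = 0.401). Rab1 thus supplied the minor share of the RAB1 counts. That share was 17.7% (95% exact binomial interval 14.9% to 20.7%) and 18.6% (16.1% to 21.4%) in shControl. It was 8.70% (6.23% to 11.7%) in shLmna 1 and 13.9% (11.4% to 16.6%) in shLmna 2. Both shLmna shares were below both shControl shares, though the interval of shLmna 2 met those of shControl, and the intervals cover counting error only. GC content of the last 1000 bases was 39.5% in Rab1 and 59.2% in Rab1b.

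Rab43, which acts in retrograde transport to the Golgi and in Golgi organization, lies at chr6:87788853-87812164 on the minus strand. It had 128 and 161 counts in the shControl libraries and 167 and 224 in the shLmna libraries, or 39.6 and 43.1 against 66.1 and 61.0 CPM. Both shLmna libraries lay above both shControl libraries, with means of 63.5 ± 3.55 CPM (SD, n = 2) and 41.4 ± 2.45 CPM (SD, n = 2). The log2 fold change was 0.61 (SE 0.154, edgeR adjusted p = 0.0253). DESeq2 gave 0.62 with an adjusted p of 0.163, and without shLmna 1 or shLmna 2 the edgeR adjusted p was 0.173 or 0.112. The annotation also holds Gm45140, a transcript on the same strand that shared 99.2% of the 31-base stretches of the Rab43 3′ end, so the reads may come from either.

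The other tested genes of this list did not pass. Rab6b, a paralogue of Rab6a with 90.9% identical residues that is best known from neurons, had 45 and 45 counts in the shControl libraries and 26 and 46 in the shLmna libraries. Rab6a made up 4.26% (0.520% to 14.5%), 76.1% (69.3% to 82.0%), 3.70% (0.0937% to 19.0%) and 6.12% (1.28% to 16.9%) of the RAB6 counts in shControl 1, shControl 2, shLmna 1 and shLmna 2. The library shControl 2 thus stood apart from the other 3. Rab6a did not enter the main test, and its values are given because of this pattern, seen in the data. Without a filter on low counts the edgeR log2 fold change of Rab6a was -4.86 (adjusted p = 1.44e-22), and DESeq2 gave -4.98 with an adjusted p of 0.179. Against shControl 1 alone, the level in shControl was 0.96 times that in shLmna (counting interval 0.0868 to 6.70).

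Rab14 showed the clearest change among the tested RAB genes. It encodes a RAB of early endosomes and the trans-Golgi network that works in recycling of receptors and adhesion molecules to the surface. The gene lies at chr2:35180205-35201120 on the minus strand, and in the transcript used here the last 1000 bases all fall within its 3′ untranslated region of 2065 bases. Rab14 had 126 and 160 counts in the shControl libraries and 222 and 347 in the shLmna libraries, or 39.0 and 42.8 against 87.8 and 94.5 CPM. Both shLmna libraries were above both shControl libraries by far more than libraries of a group differed. The means were 40.9 ± 2.69 CPM (SD, n = 2) in shControl and 91.2 ± 4.77 CPM (SD, n = 2) in shLmna. Its log2 fold change came to 1.16 (SE 0.146, edgeR adjusted p = 0.000686), the 195th smallest p of 9150. The test was passed under all 13 alternative settings, with log2 fold changes from 0.44 in the batch-corrected values to 1.22 and adjusted p from 5.27e-10 to 0.0206. The batch-corrected values gave smaller fold changes for every RAB gene that passed, so 0.44 is not directly comparable with 1.16. GC content of the Rab14 3′ end was 38.1%.

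Of the 13 tested genes of early and recycling endosomes, 16 being listed, Rab14 alone passed, or 7.69% beside 15.2% of all tested genes. The other 12 had log2 fold changes between -0.57 and 0.42. In the RAB5 group, Rab5c supplied 91.4% to 94.7% of the counts in each library, with Rab5a at 1.15% to 2.19% and Rab5b at 4.17% to 7.08%. In the RAB4 group, which returns receptors rapidly from early endosomes, Rab4b supplied 80.2% and 72.9% of the counts in shControl and 77.2% and 83.1% in shLmna. The 3′ end of Rab4b shared 96.3% of its 31-base stretches with the read-through transcript Gm21983. Rab11a, the RAB of slow recycling, had 12 and 65 counts in the shControl libraries and 26 and 28 in the shLmna libraries. Its shLmna libraries lay between the shControl libraries, and the log2 fold change was -0.29 (SE 0.551, edgeR adjusted p = 0.775). Without shControl 1 it passed at -0.98 (edgeR adjusted p = 0.0301), as did Rab4a at -0.74 (0.0260). Rab21 passed without shControl 2, at -0.62 (edgeR adjusted p = 0.0311), and in the batch-corrected values, at -0.18 (limma adjusted p = 0.0499945).

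None of the 5 tested genes of late endosomes, lysosomes and autophagy passed, of 8 listed. With 15.2% of all tested genes passing, a list of 5 is too small to say anything of the compartment. These were Rab7, Rab9, Rab12, Rab24 and Rab34, and their log2 fold changes ran from -0.30 to 0.20. Only Rab34 had an unadjusted edgeR p under 0.05 (0.0332). In DESeq2 none of the 5 passed either. In the batch-corrected values Rab34 passed at -0.18 (limma adjusted p = 0.0193), as did Rab2a at -0.14 (limma adjusted p = 0.0195).

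Among the RAB genes of exocytosis and regulated secretion, 6 of 11 were tested, and Rab3a and Rab10 were lower in shLmna, a count of 2 beside a background of 9.74% that is too small to say anything of the list. Rab3a controls docking and release of secretory vesicles. It lies at chr8:70754679-70758677 on the plus strand, where Mpv17l2 overlaps it on the other strand. Rab3a had 134 and 180 counts in the shControl libraries and 68 and 102 in the shLmna libraries, or 41.5 and 48.2 against 26.9 and 27.8 CPM. The groups did not overlap, with means of 44.8 ± 4.73 CPM (SD, n = 2) and 27.3 ± 0.633 CPM (SD, n = 2). The log2 fold change was -0.71 (SE 0.184, edgeR adjusted p = 0.0281). DESeq2 gave an adjusted p of 0.191, and leaving out shControl 2, shLmna 1 or shLmna 2 gave edgeR adjusted p of 0.0820, 0.156 and 0.156, at -0.60, -0.69 and -0.72.

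Rab3d, the granule RAB of exocrine and other non-neuronal cells, was the only other RAB3 gene detected. It had 21 and 23 counts in the shControl libraries and 11 and 18 in the shLmna libraries, and its log2 fold change was -0.44 (SE 0.366, edgeR adjusted p = 0.464). Rab3d supplied 13.5% and 11.3% of the RAB3 counts in shControl and 13.9% and 15% in shLmna, so the balance of the pair differed by less than its counting intervals. The Rab3a and Rab3d proteins share 76.4% of residues, and over the 20 pairs of the same number identity ran from 46.9% to 90.9%.

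Rab10 carries cargo to the surface, including glucose transporters and secretory vesicles. It lies at chr12:3247428-3309969 on the minus strand. Rab10 had 19 and 290 counts in the shControl libraries and 2 and 3 in the shLmna libraries, or 5.89 and 77.6 against 0.791 and 0.817 CPM. Both shLmna libraries were below both shControl libraries and at the limit of detection, but the shControl libraries differed from each other by a larger ratio than shControl 1 differed from shLmna. The means were 41.8 ± 50.7 CPM (SD, n = 2) and 0.804 ± 0.0186 CPM (SD, n = 2). The fitted log2 fold change was -5.65 (SE 1.25, edgeR adjusted p = 0.0145), a value that depends on the prior count. As a ratio of summed counts the level was 55.0 times as high in shControl (counting interval 23.3 to 171), and 7.30 times as high (2.63 to 25.001) with shControl 1 alone. The fitted value was -2.81 without shControl 2 (edgeR adjusted p = 0.0133) and -6.52 without shControl 1. The call was lost without shLmna 1 (edgeR adjusted p = 0.0848) or shLmna 2 (0.169), and in the batch-corrected values, with -0.73 (limma adjusted p = 0.0700).

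The antisense transcript Rab10os overlaps the 3′ end of Rab10 on the other strand. It had 98 and 83 counts in the shControl libraries and 54 and 84 in the shLmna libraries (log2 fold change -0.24, SE 0.231, edgeR adjusted p = 0.527) and did not share the step between the shControl libraries. Of 5132 genes with at least 100 counts in shControl 2, 22 (0.429%) were over 5 times as high in CPM in shControl 2 as in shControl 1. Rab6a and Rab10 were among these 22, whose median 3′ end GC content was 35.8%. In the opposite direction there was 1 gene of 4699. Of the 22 genes, 14 were also over 5 times as high in shControl 2 as in either shLmna library, and the rest were not. This pattern was chosen after its values were seen.

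Rab8a and Rab8b, which act with Rab10 in transport to the surface and to cilia, did not pass. Rab8b supplied 12.6% and 11.01% of the RAB8 counts in shControl and 12.2% and 13.9% in shLmna. Neither of the tested ciliary genes, Rab23 and Rab28, passed, and neither did Rab36, Rab40c or Rab29. Rab28 was at 39.3 and 48.99 CPM in shControl and 23.7 and 36.5 CPM in shLmna, without overlap (log2 fold change -0.53, SE 0.229, edgeR adjusted p = 0.152). It passed without shControl 1, at -0.67 (edgeR adjusted p = 0.0269), and in the batch-corrected values, at -0.18 (limma adjusted p = 0.0154).

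**Figure D3:**
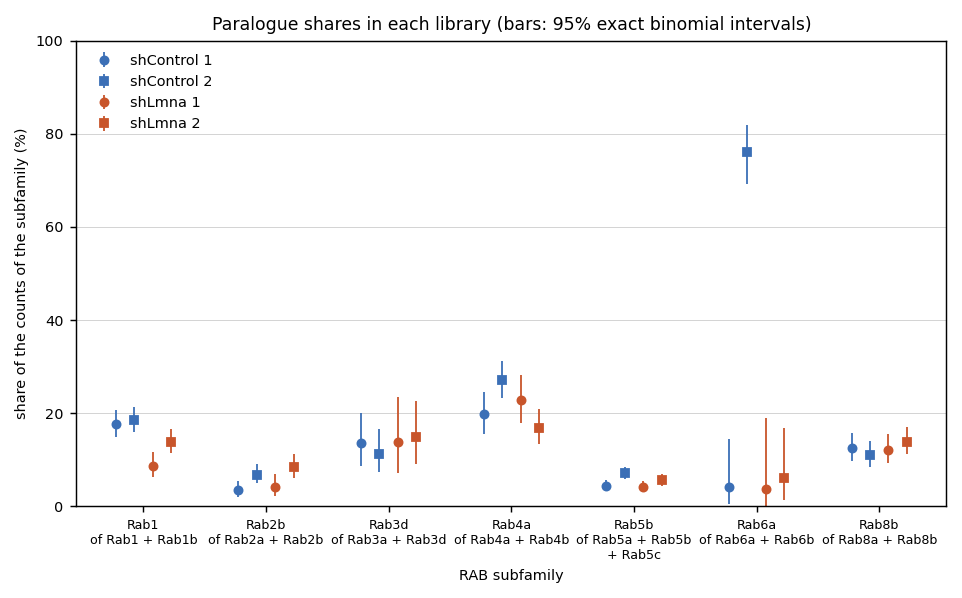
Share of a subfamily's counts taken by its named member, in percent, for 7 RAB subfamilies and each of the 4 libraries, with 95% exact binomial intervals as bars (blue shControl, orange shLmna; circles library 1, squares library 2). The Rab1 share is 17.7% and 18.6% in shControl and 8.70% and 13.9% in shLmna, the Rab3d shares overlap, and Rab6a reaches 76.1% in shControl 2 alone.

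Changes across all tested genes varied with base composition, so the RAB genes were also read by the GC content of their 3′ ends. The median was 46.5% over the 37 tested RAB genes and 46.9% over all tested genes. Of the 14 RAB genes at 42% or less, 2 were lower (Rab1 and Rab10), where 19.3% of all such genes were lower, and 1 was higher (Rab14), where 8.52% were. Of the 23 RAB genes above 42%, 1 was lower (Rab3a; background 5.90%) and 1 higher (Rab43; background 4.25%). Their 3′ ends had GC contents of 54.0% for Rab3a, 54.5% for Rab43 and 37.4% for Rab10. With a correction for GC content in each library these same 5 genes passed. The part of base composition in the changes of single genes was not tested further.

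**Figure D4:**
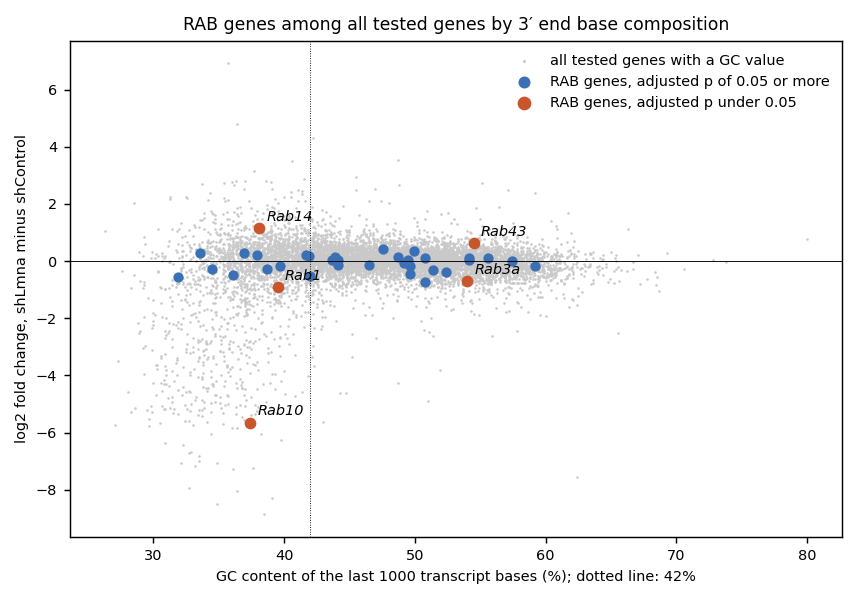
log2 fold change, shLmna minus shControl, against the GC content of the last 1000 transcript bases in percent, for all tested genes with a GC value (grey) and the RAB genes (blue, or orange where the edgeR adjusted p was under 0.05); the dotted line marks 42%. Large decreases lie mostly at low GC, where Rab10 is found at -5.65, while Rab14 at 38.1% GC is higher in shLmna.

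The genes that drive the RAB cycle were then examined. Of 134 listed genes 103 were tested, and 15 (14.6%) passed, 9 lower and 6 higher in shLmna, beside the 15.2% of all tested genes. By the 3 limits 4 were called lower (background 5.88%) and 3 higher (background 1.76%), or 6.80% of the tested cycle genes against 7.64% of all genes. The median log2 fold change of the 103 genes was -0.0051. DESeq2 gave 4 lower and 1 higher at an adjusted p under 0.05, or 3.48% and 0.870% beside 5.70% and 2.11% of all tested genes. The fits without a library are to be read beside the shares of all tested genes given above. The counts were 12 lower and 11 higher without shControl 1, 3 and 1 without shLmna 1, and 2 and 1 without shLmna 2.

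Among the 7 tested genes of membrane extraction, escort and prenylation, Chm alone passed, or 14.3% beside 15.2% of all tested genes. Chm encodes Rab escort protein 1, which presents newly made RABs to the transferase. Chm had 4 and 7 counts in the shControl libraries and 11 and 31 in the shLmna libraries, without overlap, and its log2 fold change was 2.04 (SE 0.524, edgeR adjusted p = 0.0279). DESeq2 gave an adjusted p of 0.240, and the edgeR call was lost without shLmna 1 (0.0599) or shLmna 2 (0.369). Its 3′ end had a GC content of 28.5%. Chml, the gene of Rab escort protein 2, had 6 and 6 counts in the shControl libraries and 2 and 16 in the shLmna libraries and did not enter the test.

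The transferase subunits did not pass. Rabggta had 92 and 86 counts in the shControl libraries and 71 and 89 in the shLmna libraries (log2 fold change 0.02, SE 0.218, edgeR adjusted p = 0.968). Rabggtb was at 184 and 188 CPM in shControl and 242 and 222 CPM in shLmna, with both shLmna libraries above (0.32, SE 0.120, edgeR adjusted p = 0.105). The dissociation inhibitor gene Gdi2 was at 89.8 and 258 CPM in shControl and 251 and 231 CPM in shLmna. Here shControl 1 stood apart from the other 3 libraries, and the log2 fold change (0.46, SE 0.353, edgeR adjusted p = 0.419) became -0.10 (adjusted p = 0.698) without shControl 1 and 1.42 (adjusted p = 7.45e-08) without shControl 2. Without a filter on low counts it was 0.46 (adjusted p = 0.00764).

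Of the 31 tested GEFs, Dennd1a was lower and Dennd5b higher, or 6.45% in either direction beside 15.2% of all tested genes. Dennd1a, which activates Rab35 at clathrin-coated membranes, was at 57.6 and 63.2 CPM in shControl and 36.4 and 37.1 CPM in shLmna (log2 fold change -0.72, SE 0.158, edgeR adjusted p = 0.0140). Dennd5b had 3 and 3 counts in the shControl libraries and 11 and 21 in the shLmna libraries, a ratio of summed counts of 5.99 (counting interval 2.47 to 17.5, edgeR adjusted p = 0.0144). In both genes the groups were apart, and both calls were lost in DESeq2 (adjusted p = 0.100 and 0.188) and without either shLmna library.

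Of the 30 tested GAPs, 5 (16.7%) passed as lower and 0 as higher, beside 9.74% and 5.48% of all tested genes, and no test of the difference between these shares was made. Tbc1d12 had 22 and 20 counts in the shControl libraries and 1 and 0 in the shLmna libraries, a ratio of 37.4 (counting interval 6.35 to 1511, edgeR adjusted p = 0.00359). Tbc1d15, a GAP for Rab7, had 17 and 42 counts in the shControl libraries and 3 and 4 in the shLmna libraries, a ratio of 7.50 (3.42 to 19.5, edgeR adjusted p = 0.00918). Tbc1d10b, a GAP reported for several RABs, was at 82.1 and 82.2 CPM in shControl and 58.9 and 47.4 CPM in shLmna (log2 fold change -0.64, SE 0.154, edgeR adjusted p = 0.0217). In each of these genes the groups did not overlap. The 3′ ends of Tbc1d12 and Tbc1d15 had GC contents of 33.9% and 36.1%, and that of Tbc1d10b 48.6%. Tbc1d12 lost its call without shLmna 2 (0.0755), Tbc1d15 without shControl 2 (0.05001), shLmna 1 (0.0632) or shLmna 2 (0.116), and Tbc1d10b in DESeq2 (0.107) and without shLmna 1 (0.0530) or shLmna 2 (0.214).

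Of the 35 tested effectors, 3 (8.57%) were lower and 4 (11.4%) higher, beside 9.74% and 5.48% of all tested genes. Vps35, the core of the retromer complex that Rab7 recruits to endosomes, was at 60.7 and 67.2 CPM in shControl and 24.5 and 23.98 CPM in shLmna. The groups were well apart, at -1.40 on the log2 scale (SE 0.169, edgeR adjusted p = 0.000523). Appl2, an effector of Rab5 on early signalling endosomes, was at 54.8 and 53.8 CPM in shControl and 21.4 and 25.3 CPM in shLmna (-1.21, SE 0.181, edgeR adjusted p = 0.00187). Rabep1, the gene of rabaptin-5 on early endosomes, was at 40.6 and 35.9 CPM in shControl and 77.5 and 69.5 CPM in shLmna (0.94, SE 0.157, edgeR adjusted p = 0.00356), and Nup88 overlaps it on the other strand. Vps35, Appl2 and Rabep1 passed under all 13 alternatives. Their 3′ ends had GC contents of 37.0%, 41.8% and 42.6%.

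Myo5a, the myosin Va motor that the Rab27a complex tethers to melanosomes, was at 50.5 and 57.0 CPM in shControl and 83.8 and 88.0 CPM in shLmna. Its groups did not overlap and the log2 fold change was 0.68 (SE 0.143, edgeR adjusted p = 0.0117). DESeq2 gave an adjusted p of 0.0519, and the edgeR call was lost without shLmna 1 (0.0712) or shLmna 2 (0.110). The other 5 genes that passed, Tbc1d13, Tbc1d31, Rilpl2, Rufy3 and Optn, had log2 fold changes between -0.87 and 1.07.

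**Figure D5:**
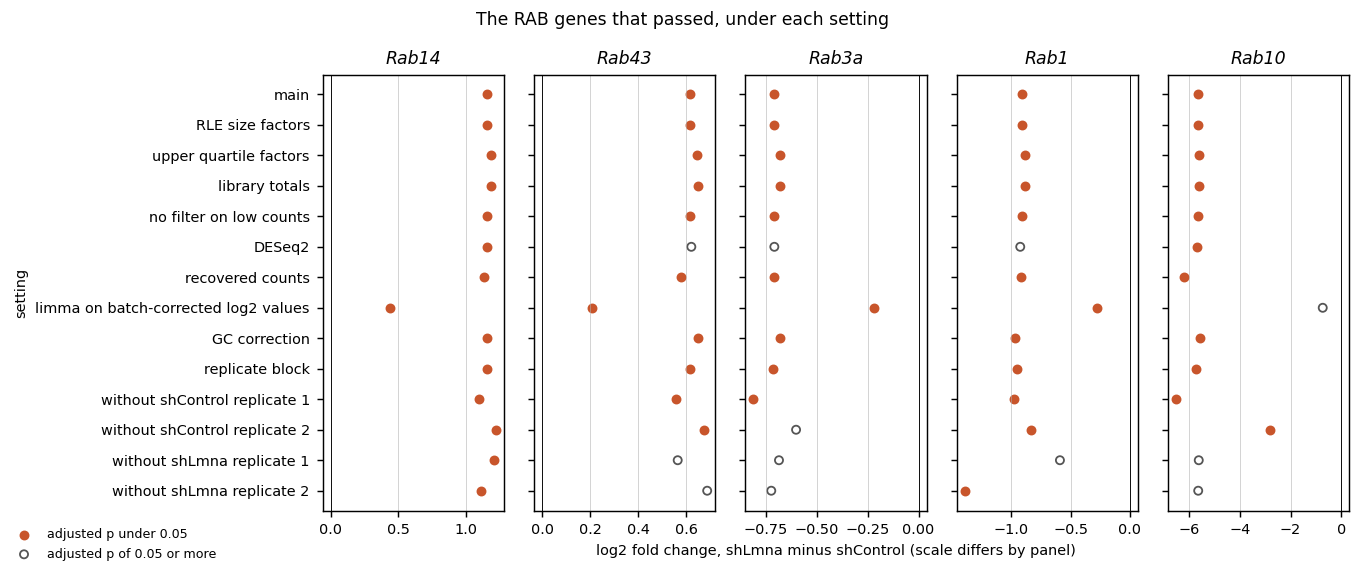
log2 fold change, shLmna minus shControl, of the 5 RAB genes that passed, under the main fit and 13 alternative settings (scales differ by panel); filled orange points had an adjusted p under 0.05 and open points did not. Rab14 is filled in every setting and lies between 0.44 and 1.22, while each of the other 4 genes has 2 to 4 open points.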

How the data were processed

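Expression was measured in 4 libraries, shControl 1 and 2 and shLmna 1 and 2, grouped by their titles. According to the methods, the authors trimmed reads with Cutadapt, aligned them to mm10 with STAR 2.4.2a, marked UMI duplicates and counted with HTSeq over the last 1000 bases of RefSeq genes and 100 bases downstream. The authors deposited raw counts per gene symbol, which were the input of every main test. A second deposited table held a signal, the count divided by a DESeq2 size factor, from which whole counts were recovered for 100% of values (tolerance 0.02 steps), and the authors' p-values and adjusted p-values for their own comparison, which were not used. Another deposited table held log2 values after ComBat batch correction by the authors, the batches not being named. The count matrix held 1.08 to 1.09 times the recovered counts in each library. The methods place UMI counting after the marking of duplicates, but do not say which deposited table it gave, so the counts may not all be separate molecules. Use of strand in counting is not given in the sources used here.

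Counts were tested two-sidedly in edgeR 4.0.16 by quasi-likelihood (R 4.3.3, TMM, filterByExpr, group as the only term) and adjusted over 9150 genes by Benjamini-Hochberg. The SE was derived from the F statistic. CPM was scaled by TMM. Library totals were 3262632, 3808843, 2494880 and 3657167 counts. Replicates differed by more than sampling noise (chi-square per degree of freedom 6.96 over 10085 genes in shControl and 3.91 over 9542 in shLmna). On simulated data for this comparison, with 9011 genes tested, changes of 2 on the log2 scale were recovered in 100% of genes, a fall of 1 in 80% and a rise of 1 in 84%. Each change was given to 50 genes, none drawn from the least abundant tested genes. All genes were simulated at a single common spread (biological coefficient of variation 0.126), although the spread of real genes differs. Recovery at the level and spread of single RAB genes was therefore not tested. Intervals are 95% exact binomial (Clopper-Pearson). Positions, GC content, transcripts and residue identities were computed from GENCODE M21 (GRCm38), which matched all 56 RAB genes, and 99.5% of tested genes had a GC value. Levels between subfamily members were compared as counts. The RAB genes, compartment, cycle and marker lists, and the 42% GC limit were chosen with earlier results of these data known. Genes named with values are Lmna, RAB genes with an adjusted p under 0.05 and their subfamilies, the 5 most abundant, genes below the filter by counts, the escort and transferase genes and Gdi2, the 10 cycle genes with the smallest p and up to 3 ARF genes. A further gene that the rule names is not reported here. Other genes were named after their values were seen. Alternatives were other scalings (RLE, upper quartile, library totals), no filter, DESeq2 1.42.0, recovered counts, limma 3.58.1 on the batch-corrected values, a GC correction (loess, span 0.3), the replicate number as a block and leaving out each library.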

Additional observations from a re-analysis of the deposited data

How the results depend on the processing

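Of 364 comparisons of the 28 named genes with an alternative setting, 321 kept direction and side of the threshold, 34 lost significance, 6 gained it and 3 changed sign, all 3 among genes that had not passed. Those were Gdi2 (-0.099 to 1.42 on the log2 scale over the leave-one-out fits, and 0.61, adjusted p = 0.000898, with the replicate block) and Rabggta (-0.14 to 0.18). Lmna, Rab14, Vps35, Appl2, Rabep1 and Arf4 passed under all 13. For RAB genes with an adjusted p under 0.05, 3 lower and 2 higher, DESeq2 gave 1 and 1, the batch-corrected values 6 lower, the replicate block 5 lower (with Rab21 and Rab28 added), and leaving out a library 0 to 7 lower and 1 to 2 higher. By the study's 3 limits, 1 lower and 1 higher became 2 lower without a filter on low counts (Rab6a and Rab10), 0 lower and 0 higher in the batch-corrected values, and 0 to 2 lower without a library. For the RAB cycle genes, 9 lower and 6 higher became 4 and 1 with DESeq2, 22 and 22 in the batch-corrected values, 12 higher without a filter, 13 higher with the replicate block, and 2 to 12 lower and 1 to 11 higher without a library. For ARF, ARL and SAR genes, 2 lower and 1 higher became 5 lower and 2 higher without a filter, 5 and 3 in the batch-corrected values, 2 higher with upper quartile factors, library totals, recovered counts or the replicate block, and 1 to 6 lower and 0 to 2 higher without a library. Over all tested genes, 891 lower and 501 higher became 589 and 218 with DESeq2, 1988 and 1793 in the batch-corrected values, 852 higher with the replicate block, and 414 to 1329 lower and 89 to 775 higher without a library. By the 3 limits, 538 lower and 161 higher became 27 and 2 in the batch-corrected values, 66 higher with DESeq2 and 60 to 232 higher without a library. Leaving out a library leaves a group with 1 sample, which is then assumed to vary like the other group. At an adjusted p under 0.05, DESeq2 gave 2.56% of 39 RAB genes lower and 2.56% higher, beside 5.70% and 2.11% of all 10329 genes. In the batch-corrected values these shares were 15% and 5% of 40 RAB genes, beside 19.1% and 17.2% of 10417. With the replicate block they were 13.5% and 5.41% of 37 RAB genes, beside 13.3% and 9.31% of 9150. Of all tested genes, 6.07% were higher with upper quartile factors, 6.24% with library totals and 5.98% with recovered counts. Without a filter on low counts, 9.49% of 13616 genes were lower and 5.51% higher. Beside these stood 9.38% of 128 cycle genes in each direction, and 5 lower and 2 higher of 25 ARF, ARL and SAR genes. In the batch-corrected values the cycle share was 18.8% of 117 genes in each direction, and with the replicate block 12.6% of 103. In these settings 19 and 17 ARF, ARL and SAR genes were tested. Causes of the differences between settings were not tested.

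The labels do not say whether same-numbered libraries shared a culture or a day. The deviations of same-numbered libraries from their group means correlated at 0.015 across 9150 genes, which are not independent replicates. This value cannot settle whether the libraries were paired. At 2494880 to 3808843 counts a library, the lowest tested RAB gene had a mean of 3.45 CPM, and less abundant RAB genes were not tested in the main fit.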

Other observations

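The ARF, ARL and SAR genes, the other small GTPases of vesicle traffic, recruit coats and other effectors to membranes. Of 28 listed genes 17 were tested, and 3 (17.6%) passed, beside 15.2% of all tested genes. Arf4, which acts at the Golgi and on recycling endosomes, had 1132 and 1500 counts in the shControl libraries and 16 and 75 in the shLmna libraries. The groups were far apart, at -4.72 on the log2 scale (SE 0.310, edgeR adjusted p = 1.40e-05), and its 3′ end had a GC content of 35.7%. Without shLmna 2 the value was -5.87 and without shLmna 1 it was -4.20, and it passed in both. Arf3, a class I ARF of the trans-Golgi network, had 383 and 532 counts in the shControl libraries and 195 and 254 in the shLmna libraries (-0.84, SE 0.144, edgeR adjusted p = 0.00422). Arf5 was higher, with 917 and 900 counts in the shControl libraries and 1079 and 1311 in the shLmna libraries (0.58, SE 0.142, edgeR adjusted p = 0.0231). The Arf3 call was lost without shLmna 2 (adjusted p = 0.0857) and the Arf5 call without shLmna 1 (0.194) or shLmna 2 (0.0719). The median log2 fold change over the 17 genes was -0.028.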
